A study of Arabidopsis thaliana with 5 samples.

Results

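The expansin superfamily comprised 35 named genes of Arabidopsis thaliana, and its members were found through the gene locus behind each probe of the array. No measured value entered that rule, but the members were chosen with earlier results of these data known. The family held 25 alpha-expansins (EXPA), 6 beta-expansins (EXPB), 3 expansin-like A genes (EXLA) and 1 expansin-like B gene (EXLB1). Of the 25433 genes with a probe, 34 were expansins; EXPB5 had no matched probe. Expression was measured in cotyledons, the seed leaves, of 7-day-old seedlings grown in long days, in 3 samples of a mutant line labelled ckg and in 2 samples of the wild type Col-0. Each RNA was hybridised alone, with the dye Cy3, to 1 Agilent array. A label field of the mutant samples reads cgr; from outside knowledge the line was taken to be mutated in CYTOKININ-RESPONSIVE GROWTH REGULATOR (AT5G50915, chromosome 5), a basic helix-loop-helix transcription factor. The allele, the number of lines and any pooling of seedlings are not given in the sources used here.

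Expansins are secreted wall proteins that let cellulose and the glycans bound to it slip past each other at acidic pH, without cutting either polymer. Growing leaf cells are known to depend on this loosening for turgor-driven expansion. Alpha-expansins are the main wall-loosening class in plants of this kind, and beta-expansins include the group-1 pollen allergens of grasses. The expansin-like proteins share the same domain layout, but no wall-loosening activity has been established for them.

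The AT5G50915 probes were well above background on both Col-0 arrays and on 0 of 3 ckg arrays, for each of its 3 probes. On ckg replicate 3 only 52.4% of spots were well above background, against 66.7% to 69.97% on the other arrays, so dim expansins were measured least well there. All ckg arrays lay on slide 2 and both Col-0 arrays on slide 1, so an effect of the slide and one of the genotype cannot be told apart. Signals are given as scaled log2 signal, which is log2 of the processed spot intensity minus the 75th percentile of that array. A value of 0 is therefore a bright spot at the upper quartile, and values of different probes are not comparable with each other. All 4 markers of green tissue were detected on every array, as the cotyledon label requires, while the 4 shoot apex markers (STM, WUS, CLV3 and KNAT1) were detected on no array. Of 5 root hair markers, RHD6, RSL4 and PRP3 were detected on no array.

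In Col-0 cotyledons 20 expansins were well above background on both arrays, 58.8% of the 34 with a probe, against 71.2% of all genes with a probe. The expressed set held 14 of 25 alpha-expansins, 2 of 5 beta-expansins with a probe, all 3 EXLA genes and EXLB1. The alpha members were EXPA1, EXPA3, EXPA4, EXPA5, EXPA6, EXPA8, EXPA9, EXPA10, EXPA11, EXPA13, EXPA14, EXPA15, EXPA16 and EXPA20, and the beta members were EXPB1 and EXPB3. These 20 were also the expansins that passed the filter for the comparison between genotypes. In ckg 16 expansins were well above background on all 3 arrays; the 4 others of the 20, EXPA4, EXPB1, EXPB3 and EXLA3, failed on ckg replicate 3 alone.

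**Figure D1:**
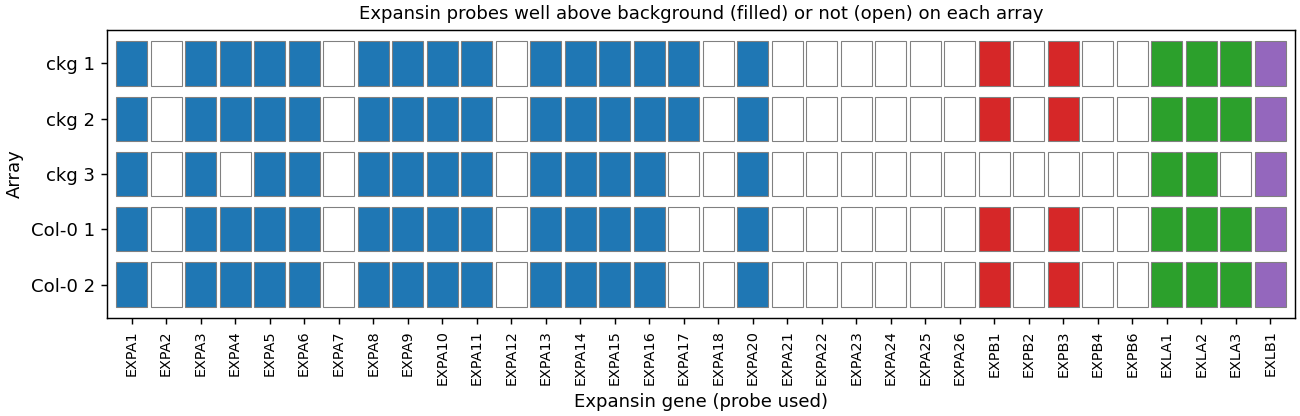
Detection of the 34 expansins that have a probe (columns, ordered by subfamily) on the 3 ckg and 2 Col-0 arrays (rows). A filled box marks a probe well above background, coloured by subfamily, and an open box one that was not; 13 columns are open on every array, and EXPA17 is filled on ckg replicates 1 and 2 only.

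No array showed a signal well above background for 13 expansins. Among them were EXPA7 and EXPA18, known for their expression in root hairs, and EXPA2, known from germinating seeds. The others were EXPA12, EXPB2, EXPB4, EXPB6 and all members of the run EXPA21 to EXPA26. Those 6 genes follow each other with no other protein-coding gene between them on chromosome 5 in the TAIR10.1 gene table. The other expansin neighbours in that table were EXPB2 and EXPB6 on chromosome 1, both undetected, and EXLA3 and EXLA1 on chromosome 3, both detected. Scaled log2 signals of the 13 ran from -9.73 to -8.02 on ckg replicates 1 and 2, from -6.15 to -4.24 on ckg replicate 3, and from -9.63 to -7.71 on the Col-0 arrays. The higher range on ckg replicate 3 went with that array's higher floor: its lowest scaled log2 signal over all probes was -6.16, against -9.75 to -9.29 on the other arrays. These values bound the transcripts from above and give no comparison between genotypes.

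EXPA17, a gene known from lateral root emergence, was the one expansin detected in ckg and not in Col-0. Its scaled log2 signals were -6.85, -6.86 and -6.06 in ckg, against -7.77 and -7.79 in Col-0. It was well above background on 2 of 3 ckg arrays and on 0 of 2 Col-0 arrays; the value on ckg replicate 3 lay near that array's floor. That value is therefore only an upper limit, and no fold is given over all arrays. It did not pass the filter with all arrays, so it has no test there. Without ckg replicate 3 EXPA17 passed the filter through ckg alone, at a log2 difference of 0.92. Its Col-0 values were not well above background and are upper limits too. That difference is therefore a description, and no test is given for it.

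Between genotypes, most detected expansins had lower signal in ckg, by modest amounts, and no single member passed limma's adjusted p of 0.05. Of the 20 tested, 16 had a lower mean in ckg, where 51.3% of all 18123 genes tested did. EXPA4, EXPB1, EXPB3 and EXLA3 passed the filter only through Col-0, and all 4 were among the lower members, so the counts over the 20 are a description. With the filter set on all 5 arrays, 12 of 16 were lower, where 50.1% of 15021 genes were, and the median log2 difference was -0.33. The median log2 difference, ckg minus Col-0, was -0.41 over the 20, beside -0.01 over all genes tested. For 10 of the 20 every ckg array lay below both Col-0 arrays, as for 22.7% of all genes tested; with the filter on all 5 arrays it was 7 of 16, as for 22.3% of genes. For 0 members every ckg array lay above both, against 19.5%. At an unadjusted limma p under 0.05, 7 members were lower in ckg and 0 were higher. By that rule 9.81% of all genes tested were lower and 8.3% were higher. With the filter on all 5 arrays, 6 of 16 members were lower at that limit, where 10.1% of genes were. Adjusted over all genes tested, 0 of 20 expansins passed (0% of all genes passed), with member values from 0.132 to 0.991. With groups of 3 and 2 an exact permutation test of a single gene cannot go below p = 0.1. The labels number the replicates but do not say that they came from separate cultures or plants, so p-values measure only the spread between these samples, which may be technical. In bulk cotyledons, fewer cells of a type and less RNA per cell cannot be told apart.

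**Figure D2:**
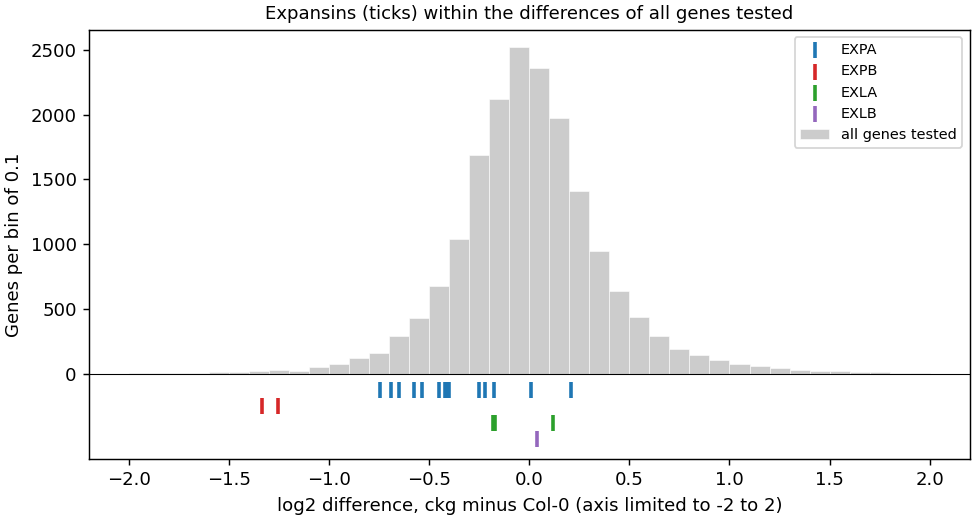
Histogram of log2 differences (ckg minus Col-0) of all genes tested in bins of 0.1, on an axis limited to -2 to 2, with a tick below for each of the 20 tested expansins, coloured by subfamily. Expansin ticks run from -1.34 to 0.21 around a median of -0.41, while all genes centre on -0.01.

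Both tested beta-expansins had lower means in ckg, and both passed the filter only through Col-0. EXPB1 had scaled log2 signals of -3.06, -2.51 and -3.28 in ckg, against -1.80 and -1.43 in Col-0. The groups did not overlap, and the highest ckg array lay 0.72 below the lower Col-0 array. EXPB1 was not well above background on ckg replicate 3. In processed intensity units, before scaling, EXPB1 read 295, 457 and 228 in ckg, against 724 and 790 in Col-0. The log2 difference was -1.34 ± 0.26 (limma SE, 95% interval -2.003 to -0.67), a 2.53-fold lower mean in ckg. Without ckg replicate 3 it was -1.17. Its limma adjusted p was 0.132, the smallest of the family. Of all genes tested, 0.392% had a difference as low as that of EXPB1. EXPB1 was lower in ckg in all 14 alternative settings and left-out arrays that gave it a value. The filter on all 5 arrays left it out. Because it passed the filter through Col-0 alone, where it was higher, its p-values are a description.

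EXPB3 had signals of -4.49, -4.51 and -6.08 in ckg, against -3.88 and -3.67 in Col-0. Every ckg array was below both Col-0 arrays. The lowest value, on ckg replicate 3, was not well above background and lay near the floor of that array. There the processed intensity was 0.213 times the raw median minus background, against 0.595 to 0.686 times on the other arrays. The log2 difference was -1.26 ± 0.53 (limma SE, interval -2.59 to 0.08) with a limma adjusted p of 0.292. Without ckg replicate 3 it was -0.73, at a limma adjusted p of 0.0959, and with all 5 arrays it was -0.63 with normexp, -0.79 with the series values and -2.16 with quantile scaling. The size of the EXPB3 difference thus moved with the array left out and with the processing, while its sign was the same in the 14 settings that gave it a value.

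Among the alpha-expansins 12 of 14 had a lower mean in ckg, where 51.3% of all genes tested did. Their median log2 difference was -0.42. EXPA1, known for its part in guard cell walls and stomatal movement, gave 2.57, 2.54 and 2.71 in ckg, against 3.02 on both Col-0 arrays. The groups were separated by 0.31, and the difference was -0.41 ± 0.11 (limma SE, adjusted p = 0.170). EXPA6 gave 3.19, 3.13 and 2.87 in ckg, against 3.67 and 3.60 in Col-0. These groups were separated by 0.41, and the difference of -0.57 ± 0.14 (limma SE, adjusted p = 0.156) was a 1.49-fold lower mean in ckg. EXPA16 gave 1.04, 0.43 and 0.60 in ckg, against 1.24 and 1.64 in Col-0. Its difference of -0.75 ± 0.23 (limma SE, adjusted p = 0.202) was the largest among alpha-expansins, a 1.68-fold lower mean in ckg. It was -0.55 without Col-0 replicate 2. Without ckg replicates 3, 2 and 1 its unadjusted limma p was 0.059, 0.0556 and 0.00577. A dimmer EXPA16 probe was at -0.59 with overlapping groups, and was not well above background on ckg replicate 3. EXPA11 gave -0.27, 0.33 and -0.28 in ckg, against 0.81 and 0.35 in Col-0, so the groups were only 0.02 apart at their nearest arrays. Its difference of -0.65 had an interval of -1.29 to -0.01 and was -0.42 without Col-0 replicate 1.

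EXPA13 and EXPA15 had the smallest adjusted p-values of the alpha-expansins, and the differences of both were smaller from the raw spot intensities. EXPA13 gave -1.07, -1.11 and -1.23 in ckg, against -0.54 and -0.66 in Col-0, a difference of -0.54 ± 0.11 (limma SE, adjusted p = 0.136). EXPA15 gave -2.85, -2.81 and -2.86 in ckg, against -2.35 and -1.95 in Col-0, a difference of -0.69 ± 0.15 (limma SE, adjusted p = 0.142). From raw spot medians corrected with normexp, the differences were -0.18 for EXPA13 and -0.13 for EXPA15, with unadjusted limma p of 0.162 and 0.292. With the authors' deposited log2 series values they were -0.20 and -0.24. For EXPA15 the processed intensity was 0.819, 0.872 and 0.830 times the raw median minus background on the ckg arrays, against 1.02 and 1.59 times on the Col-0 arrays. For EXPA13 that ratio was 1.18, 1.19 and 1.11 on the ckg arrays, against 1.45 and 1.56 on the Col-0 arrays. The ratio for EXPA1 was 0.952, 1.03 and 1.02 on the ckg arrays, against 0.991 and 0.931 on the Col-0 arrays, and its difference was -0.48 from the raw medians. EXPA6 kept an unadjusted limma p under 0.05 from the raw medians, at a difference of -0.71. EXPB1, which passed the filter only through Col-0, was at -1.08 from the raw medians.

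EXPA5, an alpha-expansin known to respond to brassinosteroid, gave 0.78, 0.42 and 1.00 in ckg, against 1.27 and 1.104 in Col-0. The groups were 0.10 apart at their nearest arrays, and the difference was -0.45 ± 0.20 (limma SE, adjusted p = 0.303), which was -0.29 without ckg replicate 2. A dimmer EXPA5 probe also had every ckg array below both Col-0 arrays, at a log2 difference of -1.002; it was not well above background on ckg replicate 3. EXPA4, known from pollen tubes, gave -6.16, -6.38 and -6.04 in ckg, against -6.01 and -5.57 in Col-0. EXPA4 was close to background, and its groups were 0.03 apart. The difference of -0.40 ± 0.18 (limma SE) was -0.18 without Col-0 replicate 2, -0.62 without Col-0 replicate 1 and -1.31 with quantile scaling. The EXPA4 raw median minus background was 90, 89 and 84 in ckg, against 92 and 92 in Col-0. Its processed intensity was 0.383, 0.353 and 0.402 times that value in ckg, against 0.424 and 0.489 times in Col-0. With normexp the EXPA4 difference was -0.28. EXPA10, known to affect leaf and petiole growth, gave -2.69, -2.43 and -2.12 in ckg, against -1.80 and -2.19 in Col-0. Its groups overlapped, and the difference was -0.42 ± 0.22 (limma SE, adjusted p = 0.365). It was -0.22 without Col-0 replicate 1, and its other probe gave -0.04.

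**Figure D3:**
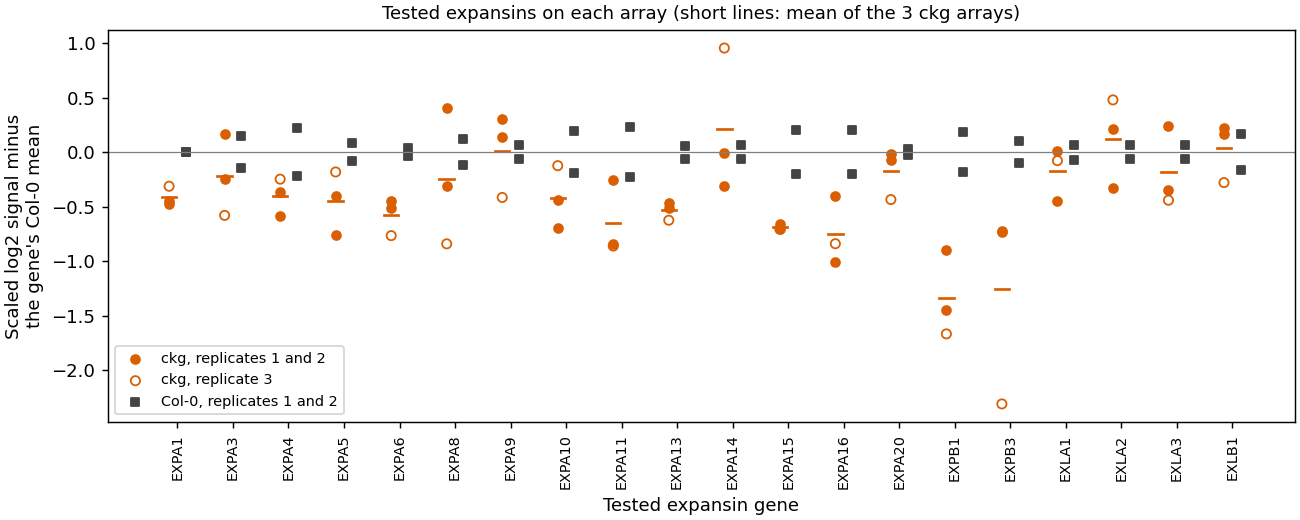
Scaled log2 signal of each tested expansin on each array minus that gene's Col-0 mean, with ckg replicates 1 and 2 as filled circles, ckg replicate 3 as open circles and Col-0 arrays as squares. Short lines give the mean of the 3 ckg arrays; the ckg points of EXPA1, EXPA6, EXPA13, EXPA15 and EXPB1 lie clear of the Col-0 squares, while those of EXPA8 and EXPA14 spread on both sides of them.

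The remaining 5 alpha-expansins had overlapping groups, and their intervals included 0. EXPA8 gave 1.52, 2.24 and 0.99 in ckg, against 1.95 and 1.72 in Col-0. The ckg arrays of EXPA8 straddled both Col-0 values, with a difference of -0.25 (interval -1.19 to 0.69) that was 0.05 without ckg replicate 3. EXPA14, known from lateral root formation, gave -3.97, -4.27 and -3.004 in ckg, against -4.02 and -3.90 in Col-0. Only ckg replicate 3 stood above both Col-0 arrays, and the difference of 0.21 (interval -0.77 to 1.19) became -0.16 without it. EXPA9 gave -0.74, -0.91 and -1.46 in ckg, against -0.98 and -1.11 in Col-0. Its difference was 0.01 (interval -0.59 to 0.60), below 0 with scaling by the array median. EXPA3 gave -1.08, -0.67 and -1.41 in ckg, against -0.69 and -0.97 in Col-0. The ckg arrays again lay on both sides of the Col-0 values, with a difference of -0.22 (interval -0.84 to 0.40), which was -0.04 without ckg replicate 3, and its other probe gave 0.05. EXPA20 gave -1.99, -2.05 and -2.41 in ckg, against -1.998 and -1.94 in Col-0. Its groups overlapped by 1 ckg array, with a difference of -0.18 (interval -0.58 to 0.23), which was -0.05 without ckg replicate 3. The dimmer EXPA20 probe had every ckg array below both Col-0 arrays at -0.50, but was not well above background on ckg replicate 3.

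The expansin-like genes lay nearer to 0. Of the 4, 2 had a lower and 2 a higher mean in ckg, where 51.3% of all genes tested were lower. Their median log2 difference was -0.07. The groups separated in either direction for 0 of the 4. Over all genes tested, every ckg array lay below both Col-0 arrays for 22.7% and above both for 19.5%. EXLA1 gave 1.99, 1.53 and 1.90 in ckg, against 2.05 and 1.91 in Col-0. The ranges overlapped, with a difference of -0.17 (interval -0.60 to 0.26). EXLA2 gave -2.52, -3.06 and -2.25 in ckg, against -2.79 and -2.66 in Col-0. The Col-0 values lay inside the ckg range, and the difference of 0.12 (interval -0.52 to 0.76) was -0.06 without ckg replicate 3. EXLA3, the chromosomal neighbour of EXLA1, gave -4.05, -4.64 and -4.73 in ckg, against -4.36 and -4.22 in Col-0. Its ckg range spanned both Col-0 values, with a difference of -0.18 (interval -0.77 to 0.41), which was -0.05 without ckg replicate 3. A dimmer EXLA3 probe was at -0.87, with Col-0 arrays far apart at -6.16 and -4.60. That probe was not well above background on ckg replicate 3. EXLB1 gave 0.75, 0.80 and 0.31 in ckg, against 0.42 and 0.75 in Col-0. Its difference was 0.04 (interval -0.48 to 0.55) from processed intensities, and 0.42 from raw medians corrected with normexp. Over the 16 alpha- and beta-expansins tested the median was -0.44, with 14 lower, where 51.3% of all genes tested were. For 10 of the 16 every ckg array lay below both Col-0 arrays, as for 22.7% of all genes tested. Among the 10 were EXPA4, EXPB1 and EXPB3, which passed the filter only through Col-0. The difference between the classes was not tested, and the intervals of single expansin-like genes still include values such as the median of the others.

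**Figure D4:**
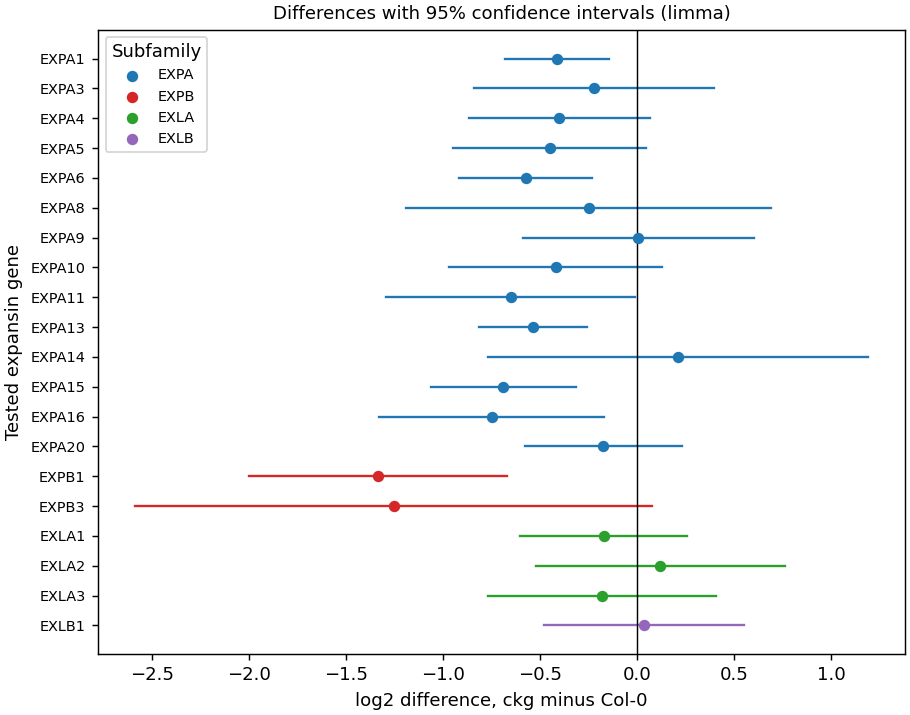
Log2 difference, ckg minus Col-0, of the 20 tested expansins with 95% confidence intervals from limma, coloured by subfamily. For 7 members the interval lies below 0 (EXPA1, EXPA6, EXPA11, EXPA13, EXPA15, EXPA16 and EXPB1) and for 0 above it; the EXLA and EXLB1 intervals all include 0.

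The precision differed among members. Standard deviations between replicates ran from 0.03 to 0.91 in ckg (n = 3) and from 0.0037 to 0.33 in Col-0 (n = 2). Limma standard errors ran from 0.11 for EXPA1 to 0.53 for EXPB3. Per-array medians of the 20 members, each gene centred on its mean over the arrays, were -0.12, -0.19 and -0.32 in ckg, against 0.25 and 0.17 in Col-0. All 3 ckg arrays thus lay on one side of both Col-0 arrays, and over all genes tested the same medians were within 0.02 of 0. The expansin medians include EXPA4, EXPB1, EXPB3 and EXLA3, which passed the filter only through Col-0, so they are a description. Without ckg replicate 3, with probes and filter chosen anew, 17 of 21 tested expansins were lower, where 51.6% of all genes were. For 11 of them both ckg arrays lay below both Col-0 arrays, as for 31.3% of all genes. With 1 array left out in turn, EXPA1, EXPA6 and EXPA13 varied least: EXPA1 ran from -0.46 to -0.38, EXPA6 from -0.64 to -0.48 and EXPA13 from -0.60 to -0.48.

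**Figure D5:**
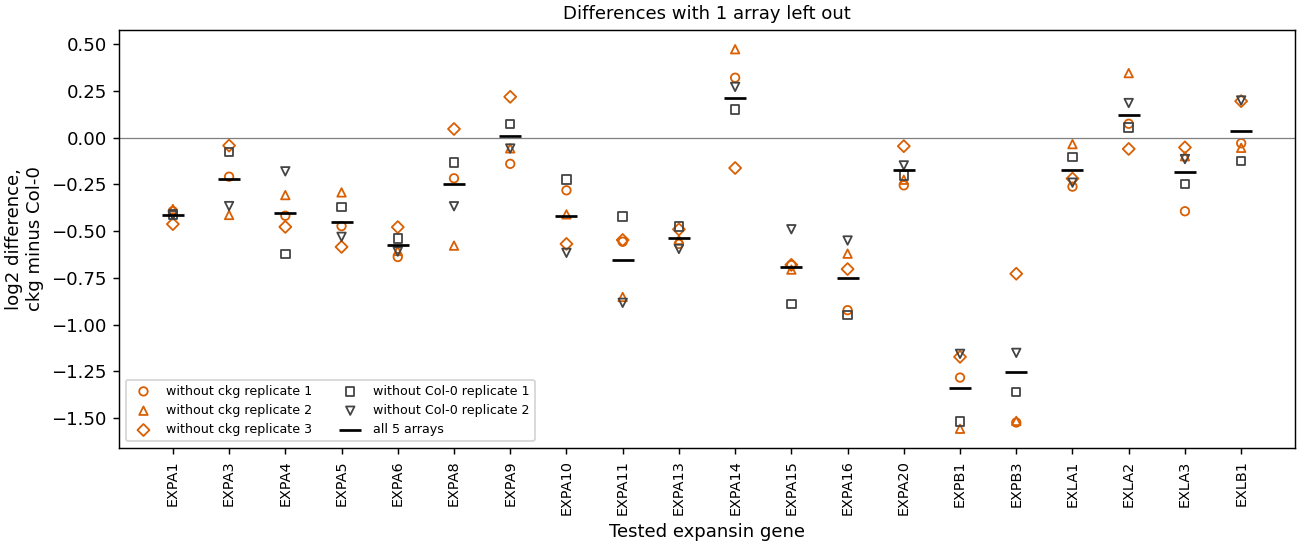
Log2 difference, ckg minus Col-0, of the tested expansins with all 5 arrays (black dashes) and with 1 array left out in turn (open symbols; ckg arrays in orange, Col-0 arrays in grey). EXPB1 runs from -1.56 to -1.16, while EXPB3 is at -0.73 without ckg replicate 3 and EXPA8, EXPA9, EXPA14, EXLA2 and EXLB1 have values on both sides of 0.

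Second probes gave a partial check within the same arrays. For 9 members there were 10 further probes, of which 7 differed in the direction of the probe in use and 3 in the other direction (1 each of EXPA3, EXPA8 and EXLB1). The opposite values were 0.05 for EXPA3, 0.04 for EXPA8 and -0.09 for EXLB1, each close to 0. Some further probes were not well above background on ckg replicate 3, so their differences are uncertain. These were the probes of EXPA5, EXPA16, EXPA20 and EXLA3, in the same direction, and the EXPA8 probe in the other. The probe sequences were not analysed here, so shared signal between similar family members cannot be assessed.

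Genes listed for the acidity at which expansins act had mostly higher means in ckg, though 0 of them passed the test. Of 19 listed genes for proton pumps (AHA), the pump-activating SAUR19 group and TMK receptor kinases, 16 were tested. Of these, 14 had a higher and 2 a lower mean in ckg, where 51.3% of all genes tested were lower. Their median log2 difference was 0.15. For 2 of the 16 every ckg array lay above both Col-0 arrays, against 19.5% of all genes tested. At an unadjusted limma p under 0.05, 2 of the 16 were higher and 0 lower, near the 8.3% of all genes that were higher by that rule, and 0 of 16 passed when adjusted over all genes. These were the pumps AHA4 (0.66 ± 0.12, limma SE, adjusted p = 0.118) and AHA9 (0.52 ± 0.18, limma SE, adjusted p = 0.229), the second of them not well above background on ckg replicate 3. The SAUR19 group is a set of similar genes whose probes may share signal. Another list held 13 genes that make or place the cellulose and xyloglucan on which expansins act, all tested. Of these, 10 had a lower mean in ckg, with a median of -0.08, where 51.3% of all genes tested were lower. For 5 of the 13 every ckg array lay below both Col-0 arrays and for 1 above both, against 22.7% and 19.5% of all genes tested. Both lists were chosen with earlier results of these data known. COB, an anchored protein that orients cellulose deposition, was at -0.52 ± 0.12 (limma SE, adjusted p = 0.154), the 1 of 13 under an unadjusted p of 0.05, where 9.81% of all genes were lower by that rule. CESA1, a cellulose synthase of primary walls, was at -0.29 ± 0.12 (limma SE, adjusted p = 0.280).

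Of the cell type markers 0 passed the adjusted test, and GC1 alone was under an unadjusted limma p of 0.05. All 4 green tissue markers (RBCS1A, LHCB1.1, LHCB2.1 and LHCB3) had lower means in ckg, with a median log2 difference of -0.27, and their summed scaled signal was 306, 300 and 349 in ckg, against 384 and 367 in Col-0. Of 5 guard cell markers 3 had lower means, with a median of -0.05, and their sum was 7.65, 7.87 and 9.76 in ckg, against 12.05 and 10.99 in Col-0. GC1 alone carried most of that sum, at -0.59 ± 0.17 (limma SE, adjusted p = 0.196), while MYB60 was at 0.02 and KAT1 at -0.05. The 2 detected root hair markers were COBL9 at 0.29 and LRX1 at -0.04, each well above background on 2 of 3 ckg arrays. The sum over all 5 was 0.0571, 0.0698 and 0.103 in ckg, against 0.0512 and 0.0639 in Col-0. It includes the 3 undetected markers, whose values lay near the higher floor on ckg replicate 3. The sum therefore gives no comparison between genotypes. Of 3 pollen markers, VGD1 and VGDH1 were detected on no array, while AT5G45880 was detected on 2 ckg and both Col-0 arrays, at a log2 difference of -0.10. The part of these cell types in the expansin values was not tested.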

How the data were processed

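The authors' scanner files hold spot intensities read with Feature Extraction 10.7.1.1, per the file headers. The processed intensity was background-subtracted and adjusted by that software, and arrays were not scaled to each other. Raw medians of spot and background served 1 alternative. Other deposited columns are flags of 0 or 1 per spot. Saturated spots numbered 0. A deposited series table gives log2 levels with unstated scaling. Spot by spot they ranked as the raw medians do (Spearman correlation 1), with a median of 8.41 for all arrays.

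Log2 processed intensity minus the array's 75th percentile was used. Control spots and outlier spots (35 to 197 per array) were left out, and spots of a probe were averaged. Accessions were matched, without versions, to loci of the TAIR10.1 table: 34358 of 43603 probes matched. Each gene took its brightest probe by mean, and entered the test if all arrays of either genotype flagged it well above background. Two-sided limma 3.58.1 tests in R 4.3.3 used Benjamini-Hochberg adjustment over 18123 genes. Limma's 3 residual degrees of freedom limit the precision. The fit was tested on simulated data. Every member is accounted for; of the other lists, the 2 genes with the smallest p are named, and markers are named by detection. The members and lists were chosen with earlier results of these data known. Alternatives covered background correction (normexp, offset 50), scaling, filter, outlier spots, probe choice, variance model, series table, replicate block and left-out arrays. Sequence comparisons of promoters and proteins were not made here.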

Additional observations from a re-analysis of the deposited data

How the results depend on the processing

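In limma 0 of 20 expansins passed an adjusted p of 0.05, and the count was 0 in every alternative tried and at an adjusted p of 0.1; 7 were under an unadjusted p of 0.05. The count lower at an unadjusted p under 0.05 was 6 to 8 with 1 ckg array left out, where 7.69% to 12.3% of all genes were lower. The share of all genes thus moved with the array left out too. Fits with 1 Col-0 array were not counted here, as they have no spread within Col-0. From raw medians with normexp the count was 6, where the share of all genes was above the 9.81% from processed intensities. The number lower in ckg was 16, against 17 to 18 with 1 array left out, where 50.2% to 52.7% of all genes were lower. The number with every ckg array below both Col-0 arrays was 10, against 11 to 13 with 1 array left out. For that separation the share of all genes went from 22.7% to between 26.98% and 31.3%. Alternatives for the separation count and the unadjusted p count were chosen after seeing the data. The number detected in Col-0 was 20 in each alternative. Of the 16 members lower in ckg, 15 were lower in each other setting that gave them a value. The median difference of -0.41 was -0.27 with normexp, -0.31 to -0.46 with 1 array left out (-0.31 without Col-0 replicate 1) and 0.021 with no filter on dim probes, where 34 expansins entered and the median of all genes was 0.12.

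The sign turned for 5 members. EXPA8 was at 0.046 with the replicate block, and ran from -0.58 to 0.046 with 1 array left out. EXPA9 was at -0.16 with normexp, -0.0065 with scaling by the median and -0.18 with the series table, and ran from -0.14 to 0.22 with 1 array left out. EXPA14 was at -0.16 with the replicate block and ran from -0.16 to 0.47. EXLA2 was at -0.061 with the block and ran from -0.061 to 0.34. EXLB1 was at -0.025 with the mean of all probes and ran from -0.13 to 0.20. The cause was not tested. With the replicate number as a block 0 expansins passed the adjusted p, and 17 were lower, where 52.7% of all genes were. The median was then -0.47. At an unadjusted limma p under 0.05 the count lower was 7 with the block too, where 8.84% of all genes were lower. EXPA11 (0.169) and EXPA16 (0.0921) no longer met that limit, while EXPA5 (0.0145) and EXPB3 (0.00819) did. Deviations of samples of the same number had correlations across genes of -0.09 for number 1 and -0.10 for number 2. With 2 Col-0 arrays the Col-0 deviations mirror each other. These values therefore cannot decide whether samples of the same number share more than a number. On ckg replicate 3, 4 of the 20 tested expansins were not well above background, which limits what can be said of EXPA4, EXPB1, EXPB3 and EXLA3.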
